A study of Mus musculus with 8 samples.

Results

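Ms4a4b, Ms4a4c and Ms4a6b are neighbouring genes of the MS4A family. They were followed through naive, virtual memory and true memory CD8 T cells of the mouse spleen. They were chosen by their read counts in these same 8 libraries, so their levels and the differences between groups are descriptions and carry no test. They were 3 of the 15609 genes in the deposited table, and all 3 passed the filter on low counts. The table also held 5 other Ms4a genes, out of 21 Ms4a genes in the RefSeq annotation. All cells came from wild-type C57BL/6 spleens and were enriched with beads against CD8 before sorting. Naive cells were CD44- CD49d-, true memory cells were CD44hi CD49d+, and virtual memory (VM) cells were CD44hi CD49d-. VM cells are memory-like cells that form without meeting a foreign antigen, and here they were split by the surface proteins Ly6C and Sca-1. Among Ly6C+ VM cells, the Sca-1- and the Sca-1+ group each had 2 libraries, named A and B by a mark on their table column whose meaning is not stated. Ly6C- Sca-1- VM, Ly6C- Sca-1+ VM, naive and true memory cells had 1 library each. The labels call the replicates separate samples and do not say whether they came from separate animals. Any error therefore measures the spread between these libraries, and a lone library has no replicate check of its own.

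MS4A proteins are small proteins that cross the membrane several times, and the best known of them is CD20, the product of Ms4a1 on B cells. Most work on the family concerns B cells, mast cells and myeloid cells, but mouse T cells express their own members. MS4A4B is a raft-associated surface protein of mouse T cells that has been described as a partner of the co-stimulatory receptor GITR and as a brake on T cell proliferation. MS4A6B has also been reported to associate with GITR, while MS4A4C is far less studied.

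The 3 genes lie within 125.687 kb of chromosome 19 and are read from the + strand. In the RefSeq annotation of GRCm38, Ms4a4c (gene ID 64380) spans 11404717 to 11427246 and Ms4a4b (gene ID 60361) spans 11443558 to 11463549. Ms4a6b (gene ID 69774) spans 11518559 to 11530403. Their main transcripts in the GENCODE annotation have 7, 7 and 8 exons, with coding lengths of 678, 678 and 732 bases. Ms4a4b and Ms4a4c are near copies: their transcripts were 90.4% identical over 1650 aligned bases, and the longest identical run was 127 bases. The nearest relative of Ms4a6b was Ms4a6c, at 89.4% identity over 1543 aligned bases. Reads of 101 bases could nonetheless mostly be told apart. Of all 101-base windows in the transcripts, 0.451% of those of Ms4a4b, 1.60% of those of Ms4a4c and 0 of those of Ms4a6b also occurred in another gene.

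The likeness of each pair reaches into the promoter, shown here because the paired genes differed in level or in pattern in these cells. The sequences are the 250 bases before the RefSeq transcription start (GRCm38.p6), written 5′ to 3′, and capitals mark runs of at least 8 bases identical within the pair. The RefSeq transcription start used for Ms4a4c lies inside the longer gene span given above.
Ms4a4b (chr19:11443308-11443557, + strand): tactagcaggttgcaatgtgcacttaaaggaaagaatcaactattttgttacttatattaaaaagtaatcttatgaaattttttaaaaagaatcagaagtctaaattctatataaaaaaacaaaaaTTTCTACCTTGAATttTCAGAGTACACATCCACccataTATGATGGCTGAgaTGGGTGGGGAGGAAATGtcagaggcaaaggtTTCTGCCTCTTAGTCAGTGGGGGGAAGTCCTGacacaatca
Ms4a4c (chr19:11407411-11407660, + strand): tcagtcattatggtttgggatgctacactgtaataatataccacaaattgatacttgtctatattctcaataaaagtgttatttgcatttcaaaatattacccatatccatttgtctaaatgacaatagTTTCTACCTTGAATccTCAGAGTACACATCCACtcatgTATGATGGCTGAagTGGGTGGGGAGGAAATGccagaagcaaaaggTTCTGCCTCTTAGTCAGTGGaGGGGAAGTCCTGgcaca
Ms4a6b (chr19:11518309-11518558, + strand): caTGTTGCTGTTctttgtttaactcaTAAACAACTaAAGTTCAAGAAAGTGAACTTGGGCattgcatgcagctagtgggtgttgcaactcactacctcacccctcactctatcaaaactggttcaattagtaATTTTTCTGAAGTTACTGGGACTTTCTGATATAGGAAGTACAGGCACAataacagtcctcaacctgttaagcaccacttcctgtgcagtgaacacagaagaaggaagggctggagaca
Ms4a6c (chr19:11469118-11469367, + strand): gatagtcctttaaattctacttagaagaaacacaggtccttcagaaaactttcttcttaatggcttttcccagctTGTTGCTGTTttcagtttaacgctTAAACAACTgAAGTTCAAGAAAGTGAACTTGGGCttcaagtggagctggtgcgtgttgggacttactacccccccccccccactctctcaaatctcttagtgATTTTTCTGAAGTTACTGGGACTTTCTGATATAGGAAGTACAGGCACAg
The promoters of Ms4a4b and Ms4a4c were 78.9% identical over 232 aligned bases. Their 6 identical runs held 92 bases, all within the last 124 bases before the start in Ms4a4b. The promoters of Ms4a6b and Ms4a6c were 85.1% identical over 175 aligned bases, with 4 runs of 91 bases in all and a longest run of 48 bases. Each of the 4 windows held the ETS-type letters GGAAGT on some strand, which 19.7% of 32851 promoter windows of this length also did. The letters began 19 bases before the start in Ms4a4b, 15 bases in Ms4a4c, 85 and 43 bases in Ms4a6b, and 16 bases in Ms4a6c. The KLF-type letters GGGTGG occurred in Ms4a4b and Ms4a4c and in 28.1% of all windows. The RUNX-type letters TGTGGT occurred in the Ms4a4c window alone of the 3 genes, 211 bases before its start, and in 14.0% of all windows. No interferon response motif (GAAA repeated after any 2 bases), STAT motif (TTCNNNGAA) or T-box motif (GGTGTGA) was found on either strand of the Ms4a4b, Ms4a4c or Ms4a6b window. These motifs occurred in 2.98%, 7.02% and 3.33% of all windows. A match describes letters and does not show a bound site.

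Libraries held between 49993407 and 63815914 counts. A level is given as CPM, a count scaled to the library total, and 1 count was worth 0.0157 to 0.0200 CPM. Between 3207 and 54632 counts stood behind each value of the 3 genes, so counting error was small beside the spread between libraries. All libraries carried the markers of CD8 T cells, with Cd8a at 1007 to 1315 CPM and Cd3e at 354 to 489 CPM. The true memory library stood apart: 9 of 9 dendritic cell markers were lower in VM than in true memory cells, and they summed to 4374 CPM there against 43.5 to 306 CPM in the other 7 libraries. Libraries A and B also differed in the same way in both Ly6C+ groups. Their log2 differences correlated at r = 0.570 over 10037 genes with a mean of at least 5 CPM.

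Ms4a4b and Ms4a6b were among the most abundant transcripts of these cells, and Ms4a4c was the gene of the 3 that varied between the sorted groups. By the authors' TPM, which corrects for transcript length and was used for the 4 lone libraries, Ms4a4b stood at 954 in naive cells, 1185 in Ly6C- Sca-1- VM, 1163 in Ly6C- Sca-1+ VM and 1229 in true memory cells. It ranked between 120 and 131 among all genes of the table in each of these libraries. Ms4a6b stood at 762, 677, 722 and 669 TPM in the same order, which placed it between rank 151 and rank 180. Ms4a4c stood at 65.0, 123, 113 and 94.2 TPM, at rank 2442 in naive cells and rank 1236 in Ly6C- Sca-1- VM. Of the counts given to the 8 Ms4a genes of the table, the 3 genes together took 94.7% to 96.9% in every library. In bulk RNA a larger share of cells with a transcript and more of it per cell cannot be told apart, which holds for every level given here.

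Ms4a4c was lowest in naive cells and highest in Ly6C+ VM cells. Naive cells had 57.5 CPM and true memory cells 80.8 CPM. Ly6C- Sca-1- VM had 106 CPM and Ly6C- Sca-1+ VM had 100 CPM (100.2). Ly6C+ Sca-1- VM had 193 and 230 CPM (230.5), and Ly6C+ Sca-1+ VM had 207 and 215 CPM. All 4 Ly6C+ libraries thus lay above the other 4, without overlap, an order that 7.05% of the 15609 genes of the table shared. The level was 3.36-fold to 4.01-fold that of naive cells in the Ly6C+ VM libraries, 1.74-fold and 1.85-fold that of naive in the Ly6C- VM libraries, and 1.41-fold in true memory cells. The spread between replicates was small: the mean was 212 ± 26.3 CPM (SD, n = 2) in Ly6C+ Sca-1- VM and 211 ± 5.28 CPM (SD, n = 2) in Ly6C+ Sca-1+ VM. The steps between naive, true memory and the Ly6C- VM cells rest on 1 library each. With library totals adjusted for composition (TMM), the 2 Ly6C- VM libraries differed from each other by 0.03 on the log2 scale. This was less than the replicate spread of 0.09 on that scale (pooled SD of log2 CPM). The CPM of 106 and 100 above lack that adjustment and lie further apart.

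**Figure D1:**
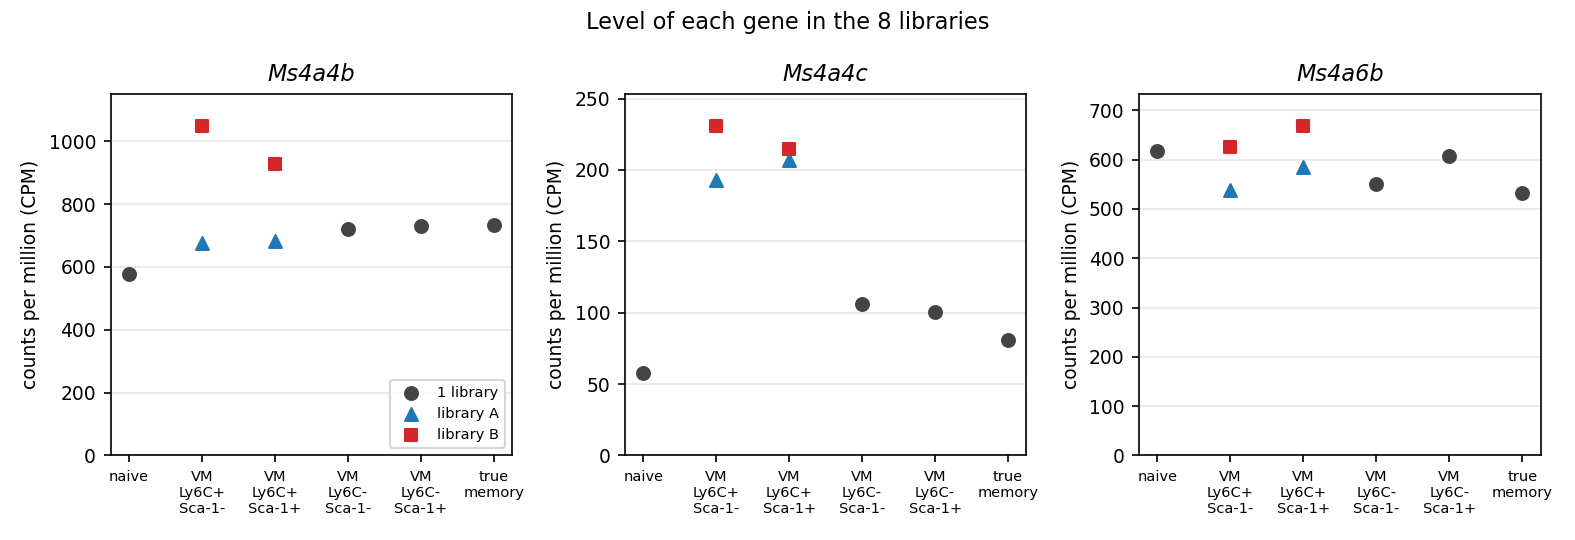
Level in CPM (y axes, each starting at 0) of Ms4a4b, Ms4a4c and Ms4a6b in each library of the 6 sorted groups (x axes); each point is 1 library, and triangles and squares mark libraries A and B. The 4 Ly6C+ points of Ms4a4c lie between 193 and 230.5 CPM, above every other library, while the Ms4a4b points of the B libraries lie above all others.

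Fitted over all 15112 genes that passed the filter, the average of the Ly6C+ VM groups exceeded that of the Ly6C- VM groups by 1.08 ± 0.09 (log2 fold change ± SE) for Ms4a4c. The same difference was 1.04 with the A libraries alone and 1.12 with the B libraries alone. The average of the 4 VM groups exceeded naive cells by 1.37 ± 0.12 and true memory cells by 0.88 ± 0.11. The fit takes the lone libraries to vary as the replicated groups do, and the comparisons share libraries. Markers of other cell types moved with this comparison, in the opposite direction to Ms4a4c. Of the regulatory T cell markers tested, 7 of 8 were lower in Ly6C+ than in Ly6C- VM (edgeR); they summed to 76.9 to 92.7 CPM in the Ly6C+ libraries, 494 and 377 CPM in the Ly6C- libraries, 91.4 CPM in naive and 244 CPM in true memory cells, and Foxp3 was not in the table. The CD4 T cell markers were lower for 3 of 3 genes, with 3.76 to 9.28 CPM in Ly6C+ VM, 14.3 and 55.6 CPM in the Ly6C- libraries, 1.52 CPM in naive and 29.7 CPM in true memory cells. The plasma cell markers were lower for 4 of 4 genes, with 42.4 to 54.8 CPM in Ly6C+ VM, 98.3 and 144 CPM in the Ly6C- libraries, 38.3 CPM in naive and 123 CPM in true memory cells. The erythroid markers were lower for 4 of 5 genes, with 3.54 to 19.1 CPM in Ly6C+ VM, 13.5 and 35.4 CPM in the Ly6C- libraries, 4.66 CPM in naive and 26.2 CPM in true memory cells. The part of these cell types in the Ms4a4c difference was not tested. For scale, 8.88% of the genes tested passed as higher and 12.6% as lower in Ly6C+ than in Ly6C- VM (edgeR quasi-likelihood test, Benjamini-Hochberg adjusted p under 0.05). Against naive cells 3.92% passed as higher and 1.48% as lower in VM, and against true memory cells 0.139% passed as higher and 4.43% as lower. Sca-1 made little difference to Ms4a4c: Ly6C+ Sca-1+ VM differed from Ly6C+ Sca-1- VM by -0.02 ± 0.10. In that comparison 0.00662% of genes, 1 gene, passed in either direction. At an unadjusted p under 0.05 there were 650 genes, and after adjustment limma-voom called 0 and DESeq2 called 230.

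Ms4a4b was high in every group and differed more between libraries A and B than between the Ly6C- VM and true memory libraries. It was at 578 CPM in naive cells, 721 CPM in Ly6C- Sca-1- VM, 730.3 CPM in Ly6C- Sca-1+ VM and 732 CPM in true memory cells. Ly6C+ Sca-1- VM had 675 CPM in library A and 1048 CPM in library B. Ly6C+ Sca-1+ VM had 683 CPM in library A and 928 CPM in library B. By CPM on library totals, both A libraries lay below the Ly6C- VM and true memory libraries and both B libraries lay above them. Naive cells were lowest of all. Scaling factors for composition (TMM) were 0.955 and 0.966 in the A libraries and 1.04 in Ly6C- Sca-1- VM. The order of the A libraries and that group therefore depends on the scaling. On the fitted scale, which adjusts for composition, B exceeded A by 0.55 (log2) in the Sca-1- group and by 0.37 in the Sca-1+ group. Only 1.73% of 10037 genes with a mean of at least 5 CPM had differences this large in both groups. By CPM without that adjustment, both B libraries lay above both A libraries for 38.1% of all genes, Ms4a4c and Ms4a6b among them. On the fitted scale the B minus A difference of Ms4a4c was 0.17 in the Sca-1- group and -0.02 in the Sca-1+ group, and that of Ms4a6b was 0.14 and 0.12. What sets A and B apart was not tested.

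The group differences of Ms4a4b were of the size of this spread. Ly6C+ VM exceeded Ly6C- VM by 0.24 ± 0.18 (log2 fold change ± SE). The value was -0.01 with the A libraries alone and 0.45 with the B libraries alone. VM exceeded naive cells by 0.44 ± 0.24, with 0.31 from the A and 0.54 from the B libraries. The difference from true memory cells was 0.09 ± 0.23, and the effect of Sca-1 within Ly6C+ VM was -0.11 ± 0.21. The order of the groups above naive was not resolved for this gene at this spread.

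Ms4a6b was the steadiest of the 3 genes. It was at 617 CPM in naive cells, 551 CPM in Ly6C- Sca-1- VM, 607 CPM in Ly6C- Sca-1+ VM and 533 CPM in true memory cells. Ly6C+ Sca-1- VM had 538 and 626 CPM, and Ly6C+ Sca-1+ VM had 585 and 667 CPM. The groups overlapped, and the highest library exceeded the lowest by 1.25-fold, against 1.81-fold for Ms4a4b and 4.01-fold for Ms4a4c. Of the genes with a mean of at least 5 CPM, 19.5% varied less over the 8 libraries than Ms4a6b did, 72.9% varied less than Ms4a4b and 94.7% varied less than Ms4a4c (SD of log2 CPM). The fitted differences of Ms4a6b were 0.11 ± 0.09 for Ly6C+ against Ly6C- VM, -0.05 ± 0.11 for VM against naive cells and 0.16 ± 0.11 for VM against true memory cells. Within Ly6C+ VM, Sca-1+ cells exceeded Sca-1- cells by 0.09 ± 0.10 (log2 fold change ± SE). The lone Ly6C- libraries differed by 0.20 in the same direction on the fitted scale, more than by the CPM on library totals given above.

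The proportion of the near copies Ms4a4b and Ms4a4c differed between the groups. Counts of Ms4a4b stood 10.05-fold above those of Ms4a4c in naive cells and 9.06-fold above them in true memory cells. The ratio was 6.80 and 7.29 in the Ly6C- VM libraries. It was 3.49 and 4.55 in Ly6C+ Sca-1- VM and 3.30 and 4.32 in Ly6C+ Sca-1+ VM. All Ly6C+ ratios lay below the other 4. The ratio of Ms4a6b to its own near copy Ms4a6c stayed between 9.08 and 12.4 in all libraries. Together the 3 genes summed to 1252 CPM in naive cells and to at most 1905 CPM, in library B of Ly6C+ Sca-1- VM.

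The other family members were expressed at far lower levels. Ms4a6c, a relative known from myeloid cells, lay between 46.2 and 62.2 CPM and had no call in any comparison. Ms4a6d, which is also known from macrophages, was at 2.80 CPM in naive cells, 4.66 and 6.28 CPM in Ly6C+ Sca-1- VM, 8.77 and 6.58 CPM in Ly6C+ Sca-1+ VM, 3.78 and 3.83 CPM in the Ly6C- libraries and 5.24 CPM in true memory cells. Its difference between Ly6C+ and Ly6C- VM, 0.82 ± 0.23 on the log2 scale, missed the threshold (edgeR adjusted p = 0.052), and it passed without some single libraries. Monocyte and macrophage markers, of which 9 of 10 were in the table, varied as well: they summed to 24.0 CPM in naive cells, 15.2 to 40.1 CPM in Ly6C+ Sca-1- VM, 149 to 222 CPM in Ly6C+ Sca-1+ VM, 80.3 and 135 CPM in the Ly6C- libraries and 163 CPM in true memory cells. Their part in the result was not tested. Ms4a4a and Ms4a4d stayed at or below 2.20 CPM in all libraries.

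Ms4a1, which encodes CD20, was near the floor of the Ly6C+ libraries, at 0.34 to 0.99 CPM, and at 1.81 to 5.15 CPM elsewhere. Its difference between Ly6C+ and Ly6C- VM, -1.48 ± 0.44 on the log2 scale, did not pass (edgeR adjusted p = 0.062). B cell markers, of which 6 of 8 were in the table, summed to between 26.1 and 48.4 CPM in all 8 libraries. Tmem176a and Tmem176b, related to the family by structure and known from dendritic cells, were the only family genes with a call among the 7 beside the 3 described. Tmem176a was at 0.33 to 0.68 CPM in Ly6C+ VM, 1.33 CPM in naive cells, 3.42 and 6.09 CPM in the Ly6C- libraries and 10.9 CPM in true memory cells. It was lower in Ly6C+ than in Ly6C- VM by a log2 fold change of -3.16 ± 0.28 (edgeR adjusted p = 0.0015), and Tmem176b was lower by -2.63 ± 0.30 (edgeR adjusted p = 0.0031). Both were also lower in VM than in true memory cells, by -2.85 ± 0.29 (edgeR adjusted p = 0.0036) and -2.97 ± 0.31 (edgeR adjusted p = 0.0038). The dendritic cell markers moved with them only in part. In Ly6C+ against Ly6C- VM, 6 of 9 were lower, 2 had no call and 1, Itgax, was higher by 0.53 ± 0.12. The markers summed to 43.5 to 66.3 CPM in Ly6C+ Sca-1- VM, 90.9 to 113 CPM in Ly6C+ Sca-1+ VM and 107 CPM in naive cells. The sum was 306 CPM in Ly6C- Sca-1- VM, 203 CPM in Ly6C- Sca-1+ VM and 4374 CPM in true memory cells. Between the Ly6C- libraries it fell, while Tmem176a rose from 3.42 to 6.09 CPM and Tmem176b from 3.78 to 7.86 CPM. The part of the dendritic cell markers in the Tmem176 result was not tested.

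**Figure D2:**
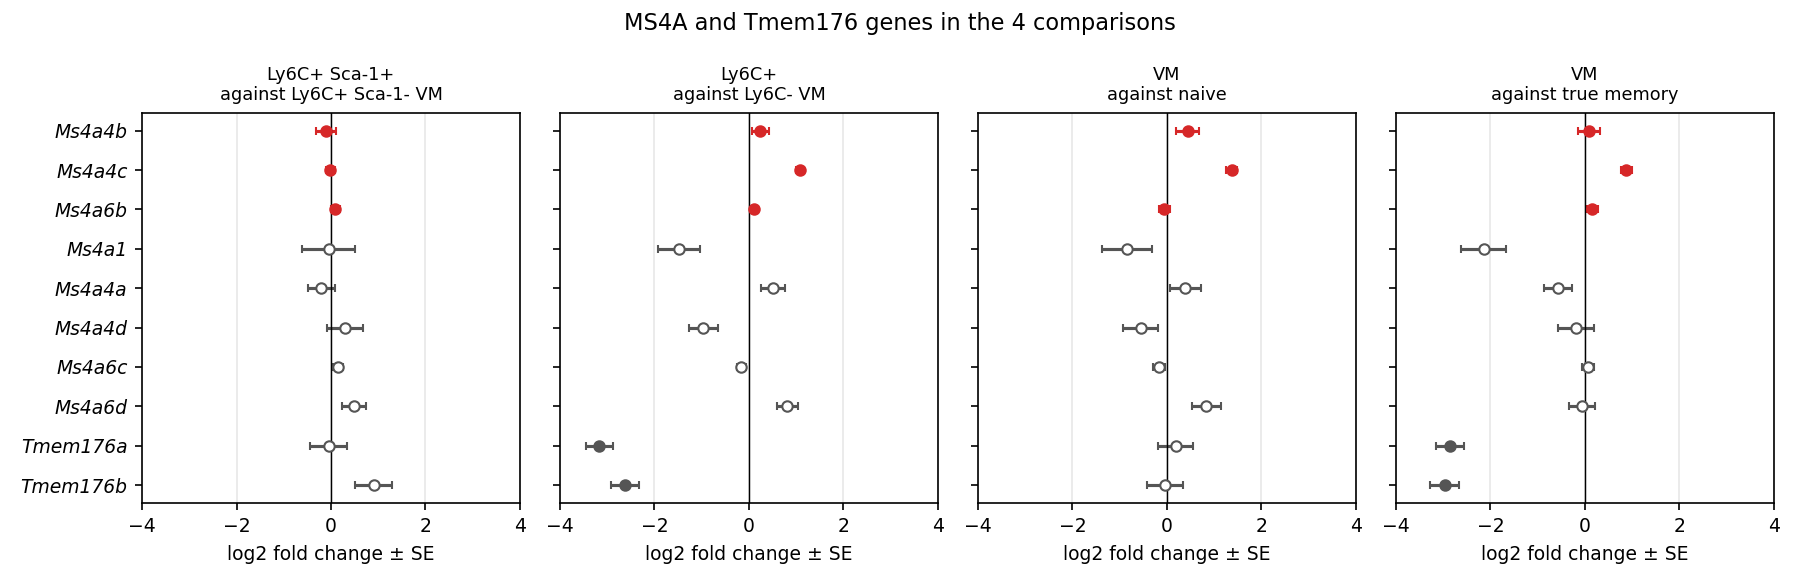
Log2 fold change (x axes, points) with its standard error (bars) for the 8 Ms4a and 2 Tmem176 genes of the table (rows) in each of the 4 comparisons (panels). Red points are Ms4a4b, Ms4a4c and Ms4a6b, which were not tested; grey filled points passed the test and open points did not. Ms4a4c lies at 1.08, 1.37 and 0.88 in the last 3 panels, while the filled Tmem176 points lie between -3.16 and -2.63.

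Along the chromosome, none of the genes near Ms4a4c was called higher in any of the 4 comparisons by edgeR, although Ms4a6d came close. Within 300 kb of the 3 genes the annotation lists 38 genes, these 3 included, and 8 genes beside the 3 were in the table. Between Ms4a4b and Ms4a6b lie Ms4a6c, the long non-coding gene BE692007 and Gm8369. Gm8369 was the 1 gene of the 8 with a call, and it went the other way. Its level was 14.4 and 12.1 CPM in the Ly6C+ Sca-1- libraries, 16.4 and 18.5 CPM in Ly6C+ Sca-1+ VM, 18.8 CPM in naive cells, 30.4 and 31.2 CPM in the Ly6C- libraries and 25.3 CPM in true memory cells. It was lower in Ly6C+ than in Ly6C- VM by -0.97 ± 0.12 (log2 fold change ± SE, edgeR adjusted p = 0.0047). BE692007 resembled Ms4a4b in its A and B libraries: libraries A and B of Ly6C+ Sca-1- VM held 69.7 and 165 CPM and those of Ly6C+ Sca-1+ VM held 77.0 and 161 CPM, with 94.1 to 120 CPM (119.98) elsewhere. It lies on the opposite strand inside Ms4a6c, from 11473447 to 11482579, and the strand setting of the counting is not given in the sources used here, so the counts of BE692007 and Ms4a6c may mix. Mrpl16, a gene of the mitochondrial ribosome at the far edge of the window, lay between 9.69 and 18.3 CPM with no call.

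**Figure D3:**
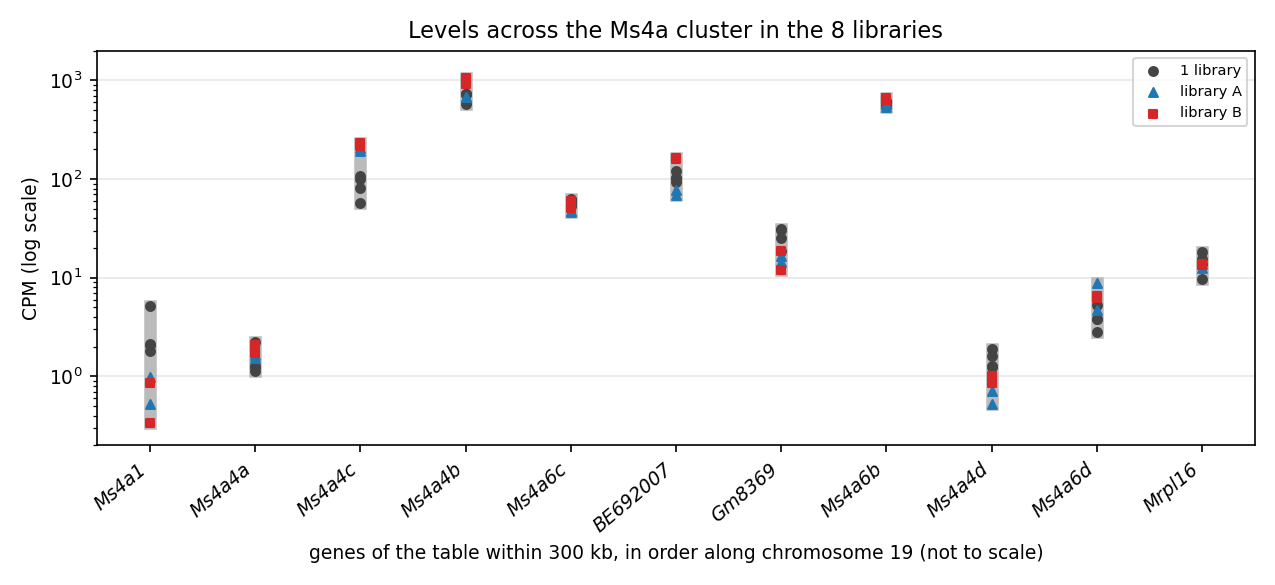
Level in CPM (y axis, log scale) of the 3 genes and the 8 other genes of the table within 300 kb, in their order along chromosome 19 (x axis, not to scale); points are the 8 libraries and grey bars span lowest to highest. Ms4a4b and Ms4a6b stand at 533 CPM or more in every library, and Ms4a4c has the widest span of the 3 genes, from 57.5 to 230.5 CPM.

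The patterns of the 3 genes across the 8 libraries were not alike. Pearson's r of log2 CPM was 0.71 between Ms4a4b and Ms4a4c, 0.41 between Ms4a4b and Ms4a6b and 0.40 between Ms4a4c and Ms4a6b, over libraries that share the A and B difference. Among 10037 genes with a mean of at least 5 CPM, those most like Ms4a4c were Rnf125 (r = 0.993), a ubiquitin ligase, Gramd3 (r = 0.993), Stat4 (r = 0.991), the transcription factor that interleukin-12 signals through, and the T cell receptor segment Trav13-1 (r = 0.991). Relative to naive cells, their levels rose by smaller folds than that of Ms4a4c. Gramd3 was at 181 CPM in naive cells, 408 and 516 CPM in Ly6C+ Sca-1- VM, 414 and 496 CPM in Ly6C+ Sca-1+ VM, 273 and 261 CPM in the Ly6C- libraries and 219 CPM in true memory cells. Stat4 was at 144 CPM in naive cells, 238 and 266 CPM in Ly6C+ Sca-1- VM, 235 and 270.2 CPM in Ly6C+ Sca-1+ VM, 184 and 187 CPM in the Ly6C- libraries and 167 CPM in true memory cells. Both repeated the order seen for Ms4a4c, in which every Ly6C+ library was above the rest. They were picked for this likeness, so their differences carry no test here: Ly6C+ exceeded Ly6C- VM by 0.82 ± 0.11 for Gramd3 and by 0.49 ± 0.09 for Stat4 (log2 fold change ± SE).

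**Figure D4:**
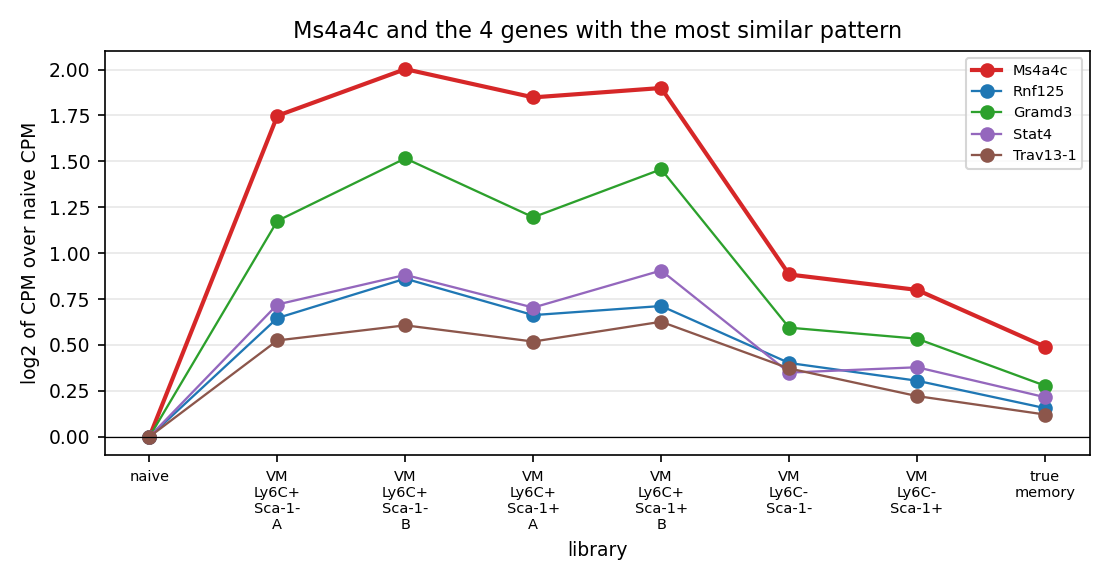
Log2 of the level over that in naive cells (y axis) for Ms4a4c and the 4 genes most like it, in the 8 libraries (x axis); each point is 1 library and the lines only join points of a gene. All 5 genes are highest in the 4 Ly6C+ libraries, where Ms4a4c reaches 4.01-fold of naive.

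The genes most like Ms4a4b followed the split between libraries A and B. They were Lzic (r = 0.952), the peroxisome biogenesis gene Pex2 (r = 0.947), the pseudogene Gm14292 (r = 0.944) and Crot (r = 0.943), a carnitine octanoyltransferase of peroxisomes. Pex2 was at 21.8 and 21.4 CPM in the A libraries, at 28.3 and 26.0 CPM in the B libraries and between 21.9 and 23.1 CPM elsewhere. Those most like Ms4a6b were Zfp68 (r = 0.936), Rev1 (r = 0.929), a DNA polymerase of translesion synthesis, Mphosph10 (r = 0.926), which acts in ribosomal RNA processing, and Zfp970 (r = 0.925). With group means in place of libraries, 3 of the 4 genes were again named for Ms4a4c, but 0 of 4 for Ms4a4b and 0 of 4 for Ms4a6b.

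Lists of genes linked to the described roles of MS4A proteins showed few calls, to be read beside the background shares given above. GITR itself (Tnfrsf18), singled out after its values were seen, lay between 24.8 and 30.1 CPM in the 8 libraries and had no call. In the list of GITR and membrane raft genes, 11 of 12 genes were tested. In Ly6C+ against Ly6C- VM, Pag1, a raft adaptor that recruits the kinase Csk, was higher by 0.36 ± 0.09 (edgeR adjusted p = 0.039), and Lat, the scaffold downstream of the T cell receptor, was lower with -0.58 ± 0.09 (edgeR adjusted p = 0.0080). The median of the list was -0.09 on the log2 scale beside 0.0018 over all genes tested. The list had 0 calls against naive and against true memory cells. Of 15 calcium entry genes, 2 were higher in Ly6C+ than in Ly6C- VM: Itpr1, a calcium release channel, by 0.50 ± 0.08 (edgeR adjusted p = 0.010) and Ppp3ca, the catalytic subunit of calcineurin, by 0.35 ± 0.09 (edgeR adjusted p = 0.038). The median was 0.06, and the list had 0 calls in the other comparisons.

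Brakes of the cell cycle were read beside the described role of MS4A4B. In Ly6C+ against Ly6C- VM, 1 of 15 quiescence and inhibitor genes was higher, 3 were lower and 11 had no call, with a median of 0.02 (log2). These shares are near the 8.88% of all genes called higher and the 12.6% called lower. The lower ones were Cdkn2c, at -1.74 ± 0.15 (edgeR adjusted p = 0.0013), Rb1 and Cdkn1a. Cdkn1b, which encodes the inhibitor p27 and was also singled out after its values were seen, lay between 118 and 170 CPM (169.8) and had no call. The cell cycle genes themselves were lower in Ly6C+ VM for 20 of 20 genes, with a median of -2.54 (log2), and higher in VM than in naive cells for 19 of 20. They summed to 325 CPM in naive cells, 410 to 469 CPM (409.8 to 469.2) in Ly6C+ Sca-1- VM, 602 to 705 CPM in Ly6C+ Sca-1+ VM, 1539 and 2417 CPM in the Ly6C- libraries and 1819 CPM in true memory cells. Ms4a4b was at 675 to 1048 CPM in Ly6C+ VM and 721 to 732 CPM in the Ly6C- and true memory libraries. Its order of groups above naive was not resolved beside the spread between libraries A and B. A link between Ms4a4b and the cell cycle genes was not tested.

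Ms4a4c was set beside lists of interferon-stimulated and type 1 effector genes. Of 26 interferon-stimulated genes tested, 4 were higher and 4 lower in Ly6C+ than in Ly6C- VM. Samd9l was higher by 0.54 ± 0.11 (edgeR adjusted p = 0.020), and Ifi27l2a was lower with -1.49 ± 0.07 (edgeR adjusted p = 0.00037). The median was -0.01 on the log2 scale. Against naive cells 2 of the 26, Mx1 and Ly6e, were higher in VM, and against true memory cells 0 had a call. Of 13 type 1 effector genes, 8 were higher and 1 lower in Ly6C+ than in Ly6C- VM, with a median of 0.49, and 10 were higher in VM than in naive cells, with a median of 2.38. Among them Il18rap, a subunit of the interleukin-18 receptor, was higher in Ly6C+ VM by 2.23 ± 0.09 (edgeR adjusted p = 0.00035) and perforin, Prf1, by 1.02 ± 0.07 (edgeR adjusted p = 0.00084). Granzyme B, Gzmb, was lower with -2.38 ± 0.20 (edgeR adjusted p = 0.0012). Stat4, picked above for its likeness to Ms4a4c in these same libraries, is also in the type 1 effector list. It is among the 8 and the 10 genes counted as higher, and its value is the median of 0.49. These counts therefore include a gene picked by its likeness to Ms4a4c. Against true memory cells 1 of the 13 genes was higher in VM and 3 were lower. In the Ly6C+ Sca-1+ against Sca-1- comparison none of these 6 lists had a call by edgeR, in a fit that called 1 gene in all. The fitted values were above 0 for 20 of 20 cell cycle genes, with a median log2 fold change of 1.02, and for 26 of 26 interferon-stimulated genes, with a median of 0.15, beside a median of -0.0051 over all genes. The number of genes called in this comparison rose to 230 with DESeq2, 467 with the column mark as a block and 307 when the A library of the Ly6C+ Sca-1- group was left out.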

How the data were processed

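Bulk RNA-seq of 8 sorted mouse CD8 T cell libraries was analysed from the deposited table. Per the labels' protocols, stranded mRNA libraries (TruSeq) were sequenced as paired 101-base reads and trimmed with Trimmomatic 0.38 after FastQC 0.11.7. Genome build mm10 and the tools edgeR and R 3.6.0 are listed, with no role, in the submitters' processing notes. For the aligner, the counter and its strand setting, the sources used here give no name. The authors deposited raw read counts per gene, used for all 8 libraries, and TPM, used for the 4 lone libraries. The smallest deposited count was 1, so a gene missing from the table may have had low counts. The other 20 columns of per-sample values were not used. Groups come from the sample titles, because another label calls all cells virtual memory.

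CPM was computed from library totals. edgeR 4.0.16 (R 4.3.3) fitted all 6 groups over 15112 genes after filterByExpr, with TMM scaling, a quasi-likelihood test and Benjamini-Hochberg adjustment at 0.05; 2 residual degrees of freedom remained. SE is the log2 fold change divided by the root of F. Comparisons average groups with equal weight. Likeness, replicate spread and log2 differences between single libraries used log2 CPM with TMM scaling and a prior count of 2. The genes, lists and tests were chosen with earlier results of these data known. Named genes were the 3 genes, other Ms4a and Tmem176 genes, the 4 most alike per gene, neighbours within 300 kb, and up to 3 called genes with the smallest p per list and direction. Alternatives were other scalings, filters, limma 3.58.1 (voom), DESeq2 1.42.0, a block and omitted libraries. The fit was tested on simulated data. Promoters came from RefSeq (GRCm38.p6), which matched 3 of the 3 genes, and 15570 of the 15609 gene IDs.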

Additional observations from a re-analysis of the deposited data

How the results depend on the processing

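Of 174 values of the 3 genes under all alternatives, 167 moved by less than the replicate spread of the gene. This spread was 0.33 (pooled SD of log2 CPM) for Ms4a4b and 0.09 for both Ms4a4c and Ms4a6b, so the count says little about Ms4a4b. Its Sca-1 difference ran from -0.3558 to 0.1980 with single libraries left out, all within that spread. The Ms4a4c difference between VM and naive cells became 1.54 without the Ly6C- Sca-1- group and 1.5550 without the Ly6C- Sca-1+ group, and that from true memory cells became 1.08 and 1.06, as the Ly6C+ groups then weigh more. Its Sca-1 difference ran from -0.1005 to 0.0736 when single libraries were left out; using libraries A or B alone, an alternative added after seeing the data, gave 0.0841 and -0.1110. Genes passing for Sca-1 within Ly6C+ VM, 1 as reported, were 0 with library totals alone, no filter, a 1 CPM filter or limma-voom, 230 with DESeq2, and 1 to 307 with single libraries left out (307 and 267 without Ly6C+ Sca-1- libraries A and B, 37 without Ly6C+ Sca-1+ library A). Genes passing for Ly6C, 3240 as reported, were 1370 and 1126 without the Ly6C- Sca-1- or Ly6C- Sca-1+ group and 2039 to 4381 with single libraries left out, the lowest without Ly6C+ Sca-1+ library A. Against naive cells they were 815 as reported, 1346 with DESeq2, and 727 to 1918 with single libraries left out (1902 and 1918 without Ly6C+ Sca-1- libraries A and B). Against true memory cells they were 691 as reported and 680 to 1251 (1251 and 1236 without the same libraries). With the column mark as a replicate block, the counts were 467, 6601, 4019 and 2604; the columns carry no replicate number, so this pairing is only a hint from the data. Under the block BE692007 turned to -0.34 for Ly6C and -0.25 against true memory cells. Of 4305 other values, for named genes and for the sets of most alike genes, 3960 kept their side of the threshold or most set members. Values with no call could change sign and still count among these. Another 95 lost a call, 243 gained one, 2 with a call reversed, and 5 sets of most alike genes changed more. The calls of Tmem176a, Tmem176b and Gm8369 held under all alternatives run. Ms4a1 missed the threshold as reported but passed for Ly6C under 6 of 13 alternatives and against true memory cells under 9 of 13, and Ms4a6d passed for Ly6C under 6 of 13. By Spearman's rho, 1 of the 4 genes most like each of the 3 genes was named again; the cause was not tested. Depth does not limit the 3 genes, but 4 groups with a single library do.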
